A study of Danio rerio with 19 samples.

Results

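Described here are genes with far higher mean levels in bihormonal cells and in the sst1.1 δ-cells of normal islets than in other sorts. These other sorts were β-cells and cells with faint GFP. Of 31901 genes in the count tables, 24 were chosen. Levels were computed as counts per 1000000 counts (CPM) in each library, on totals that leave out the 4 hormone genes ins, sst1.1, sst1.2 and sst2, so that a hormone can exceed 1000000 CPM. A gene was kept when its mean was at least 5 CPM in bihormonal cells and in GFPhigh cells and each of these means was at least 8 times both the GFPlow mean and the β-cell mean. The genes were thus selected on measured levels, and the distance of bihormonal and GFPhigh cells from GFPlow cells and β-cells is a description here and was not tested. A total of 29 genes passed the thresholds, and 8 gene IDs had been set aside in advance of the choice. Among these 8, sst1.1, UCN3, BDNF, insl5b and ADORA2B passed.

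RNA had been sequenced from cells sorted by FACS from main islets of adult zebrafish aged 6 to 10 months, of both sexes, with 2 to 4 pancreata pooled per library. All fish carried both Tg(sst1.1:eGFP), in which the sst1.1 promoter drives GFP, and Tg(ins:NTR*-P2A-mCherry), in which the ins promoter drives a nitroreductase and mCherry. Bihormonal cells (6 libraries) were positive for GFP and mCherry and came from fish exposed for 18 hr to 2.5 µM NFP, a prodrug that the nitroreductase turns toxic, so that β-cells are ablated, and were sorted at 20 days post treatment (dpt). GFPhigh cells (3 libraries, strong GFP, the sst1.1 δ-cells of the study), GFPlow cells (3 libraries, weak GFP) and β-cells (7 libraries, mCherry) came from control fish given 0.16% DMSO. Bihormonal cells were thus the one group from ablated islets, and effects of ablation, time after it and cell type cannot be told apart in their comparisons. Fewer cells of a type and less RNA per cell cannot be told apart either in such bulk samples.

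Pancreatic δ-cells release somatostatin, a peptide that restrains hormone secretion by neighbouring endocrine cells, and β-cells release insulin. Zebrafish have several somatostatin genes, and sst1.1 and sst2 mark different δ-cells of the islet. After β-cell loss, zebrafish islets form cells that make insulin and somatostatin together. The chosen genes belong to no single pathway. By their known roles they include transcription factors (SIM1, RUNX1), secreted proteins (SLIT1, ALKAL2, VWC2L, MMP9), receptors and membrane proteins (ptger4c, galr2b, cacng3a, SLC5A7), enzymes and intracellular proteins (HECW2, LNX1, GCNT4, PIF1, ARVCF, FHL3, NSMF, ELAVL3, tent5bb), members of neural gene families (brinp3a.1, epdl2) and 3 genes with no given name (si:dkey-175g6.2, si:ch211-258f14.2 and si:dkey-191g9.5). Names in capitals are human symbols that the gene name table gives to a zebrafish gene, as for 15 of the 24.

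Libraries held 5599246 to 18077658 counts, of which 24.5% to 61.6% fell on the 4 hormone genes. The hormones went with the labels of the groups. Levels of ins were 26535 to 103306 CPM in bihormonal cells, 172 to 888 CPM in GFPhigh cells, 514 to 1994 CPM in GFPlow cells and 321614 to 477374 CPM in β-cells. The δ-cell factor hhex averaged 73.2, 73.9, 115 and 0.273 CPM in the same order of groups, and sst2 reached 258578 CPM or more in every GFPlow library but at most 6088 CPM in any other. The defining markers of leukocytes, endothelium and red blood cells summed to at most 8.58 CPM in any library, and the summed level of 9 acinar genes was 19.1 to 130 CPM in bihormonal cells, 23.6 to 53.3 CPM in GFPhigh cells, 57.0 to 754 CPM in GFPlow cells and 9.17 to 124 CPM in β-cells. Other endocrine markers were not at the floor. The level of gcga, the glucagon gene of α-cells, was 550.1 to 10189 CPM in bihormonal cells, 14.3 to 693 CPM in GFPhigh cells, 2419.6 to 4676 CPM in GFPlow cells and 1062 to 1919 CPM in β-cells. The ε-cell gene ghrl reached at most 95.3, 66.8, 10983 and 262 CPM in the same order, and 6 duct genes summed to 116 to 255, 195 to 298, 919.5 to 1072 and 319 to 562 CPM. Of these duct genes krt8 averaged 127, 212, 177 and 345 CPM and ANXA4 averaged 16.3, 8.41, 813 and 37.3 CPM. A gene named SOX9 (ENSDARG00000003293) went another way than the sum, with 23.7, 21.1, 7.90 and 0.707 CPM. The part of such cells in these results was not tested. In a list of 4 neuron and glia markers, ELAVL3 is itself one of the chosen genes, mbpa (myelin) was at 0 in every library, GFAP stayed at or below 2.68 CPM, and ELAVL4 averaged 75.1, 86.8, 90.9 and 69.5 CPM, at a like level in all groups. Library numbers in the deposited file names fall into 6 runs, called library sets here. Bihormonal replicates 1 to 3 form a set of their own, and only 1 set holds both bihormonal (replicate 6) and GFPhigh (replicate 3) cells.

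**Figure D1:**
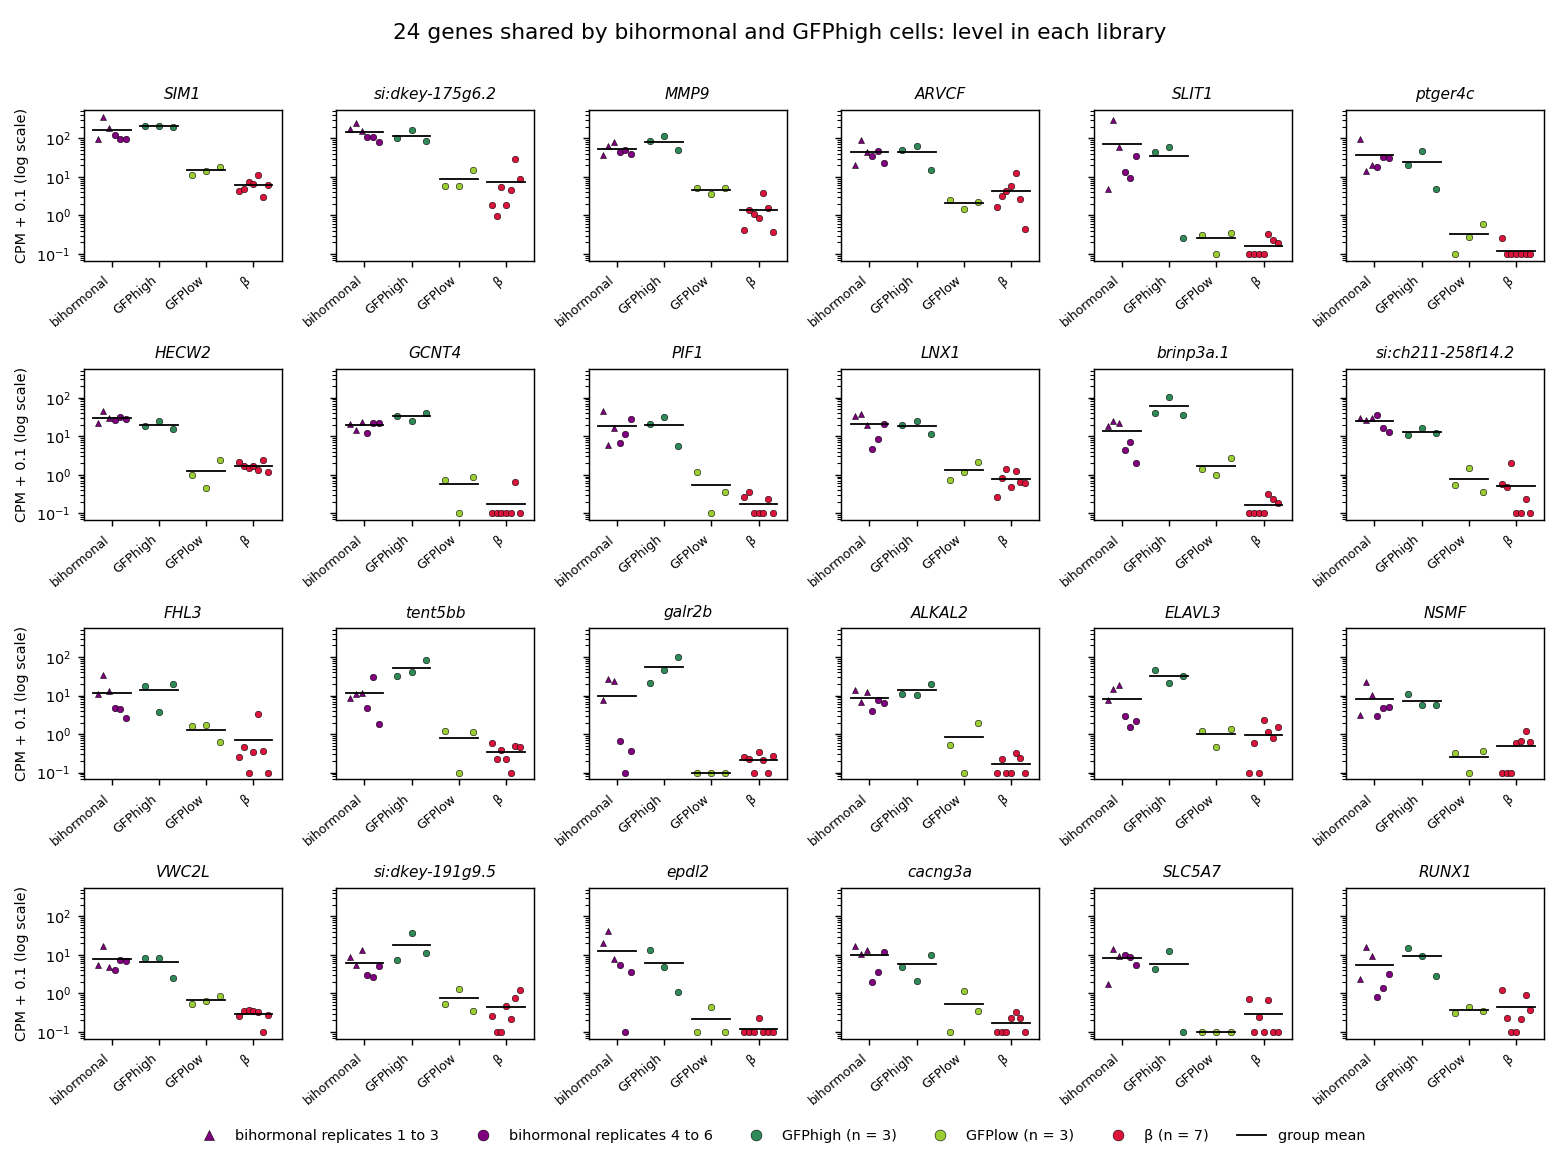
Level of each of the 24 genes in each library, as CPM on totals without the 4 hormone genes plus 0.1, on a log axis. Points are libraries (triangles for bihormonal replicates 1 to 3) and lines are group means. In 16 panels the 9 bihormonal and GFPhigh libraries lie above all 10 others. GFPhigh replicate 3 falls among the low libraries for SLIT1 and SLC5A7, as does bihormonal replicate 5 for galr2b.

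All 9 bihormonal and GFPhigh libraries exceeded all 10 GFPlow and β-cell libraries for 16 of the 24 genes (1.01% of 14693 tested genes did so), a count that the choice of genes itself favours. The exceptions were SLIT1, brinp3a.1, FHL3, galr2b, ELAVL3, epdl2, SLC5A7 and RUNX1. Summed over the 24 genes, levels were 707, 1464, 840, 479, 514.9 and 474 CPM in bihormonal libraries and 843, 1088 and 761 CPM in GFPhigh libraries. They were 35.0, 34.5 and 55.7 CPM in GFPlow libraries and 13.8 to 44.1 CPM in β-cell libraries. Thus the sums of bihormonal and GFPhigh cells overlapped, and both stood far above the other sorts, as the rule fixes.

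Of the 2 transcription factors, SIM1 was even over GFPhigh libraries and RUNX1 was not. SIM1 (ENSDARG00000023316), a bHLH-PAS factor needed for hypothalamic neurons in mouse, had 97.7, 369.7, 191, 126, 98.2 and 97.5 CPM in bihormonal cells, against 209, 206 and 199.8 CPM in GFPhigh cells. GFPlow cells had 11.4, 14.4 and 18.3 CPM, and β-cells had 2.83 to 11.3 CPM with a median of 5.89. GFPhigh libraries agreed closely (205 ± 4.60 CPM, SD, n = 3), whereas bihormonal replicate 2 stood far above the other 5, and the 2 groups overlapped. The log2 fold change of SIM1 between bihormonal and GFPhigh cells was -0.12 (SE 0.378, adjusted p = 0.854). RUNX1 (ENSDARG00000087646), a Runt-domain factor known from blood formation, had 2.28, 16.2, 9.25, 0.721, 1.32 and 3.01 CPM in bihormonal cells, against 15.3, 9.30 and 2.74 CPM in GFPhigh cells. Bihormonal replicate 4 lay below the highest β-cell library (1.11 CPM), so that RUNX1 overlapped between bihormonal cells and β-cells.

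Among secreted proteins, SLIT1 (ENSDARG00000099446), a guidance cue that binds Robo receptors, varied most over bihormonal libraries. It had 4.89, 306.6, 58.5, 13.6, 9.53 and 35.2 CPM in bihormonal cells, against 43.7, 61.2 and 0.161 CPM in GFPhigh cells. In GFPlow and β-cell libraries it never exceeded 0.258 CPM, with 2 and 4 counts over each of these groups. Thus 2 of the 3 GFPhigh libraries held SLIT1 and replicate 3 sat at the level of the other sorts, while bihormonal replicate 2 alone lifted the bihormonal mean. The difference of bihormonal from GFPhigh cells in SLIT1 was 1.18 on the log2 scale (SE 1.02, adjusted p = 0.462), and without bihormonal replicate 2 it was -0.36. MMP9 (ENSDARG00000042816), a matrix metalloproteinase, was more even, with 36.05, 61.9, 82.4, 44.4, 49.6 and 38.9 CPM in bihormonal cells, against 83.5, 114 and 50.7 CPM in GFPhigh cells. Its log2 fold change was -0.45 (SE 0.404, adjusted p = 0.480). ALKAL2 (ENSDARG00000091073), a ligand of the receptor tyrosine kinases ALK and LTK, had 3.89 to 14.0 CPM with a median of 7.21 in bihormonal cells, against 11.0, 10.0 and 20.1 CPM in GFPhigh cells. VWC2L (ENSDARG00000069134), a secreted protein with a von Willebrand factor C domain, had 3.89 to 16.9 CPM (median 6.14) in bihormonal cells, against 8.37, 8.41 and 2.42 CPM in GFPhigh cells. Both ALKAL2 and VWC2L overlapped between bihormonal and GFPhigh cells.

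Receptors and membrane proteins included genes that faded in part of the libraries. ptger4c (ENSDARG00000079907), a receptor of the EP4 type for prostaglandin E2, had 98.0, 14.4, 20.9, 17.7, 33.6 and 30.5 CPM in bihormonal cells, against 20.5, 47.2 and 4.67 CPM in GFPhigh cells. Only 3 counts over the GFPlow libraries and 1 over the β-cell libraries mapped to it. The log2 fold change of ptger4c was 0.75 (SE 0.579, adjusted p = 0.409). galr2b (ENSDARG00000105113), a receptor for the neuropeptide galanin, had 7.50, 26.9, 23.2, 0.577, 0 and 0.262 CPM in bihormonal cells, against 21.0, 45.98 and 97.6 CPM in GFPhigh cells. The first 3 bihormonal libraries shared its expression with GFPhigh cells, and the other 3 lay near the β-cell range of 0 to 0.251 CPM. No read of galr2b or of SLC5A7 was counted in any GFPlow library, which allows up to 0.211 CPM over that group (a floor of 3 counts, for counting error only). SLC5A7 (ENSDARG00000102336), the choline transporter of cholinergic neurons, had 1.63 to 13.7 CPM (median 9.25) in bihormonal cells, against 4.28, 12.5 and 0 CPM in GFPhigh cells. cacng3a (ENSDARG00000058460), whose family are auxiliary subunits of AMPA-type glutamate receptors, had 17.3, 10.3, 12.996, 1.87, 3.57 and 11.6 CPM in bihormonal cells, against 4.84, 1.97 and 10.1 CPM in GFPhigh cells, with overlap. In the fit across all genes, 5 of 261 receptor genes were higher and 8 lower in bihormonal than in GFPhigh cells, and of 179 ion channel genes 4 were higher and 2 lower, beside 1.42% and 1.34% of all tested genes.

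Among intracellular proteins, HECW2 (ENSDARG00000062447), a ubiquitin ligase, varied least of the 24 genes over bihormonal libraries. It had 21.5, 44.1, 29.2, 26.8, 31.4 and 28.4 CPM in bihormonal cells, against 18.0, 25.0 and 15.5 CPM in GFPhigh cells. Only 1 bihormonal library overlapped with GFPhigh cells, yet the log2 fold change of HECW2, 0.84 (SE 0.338), did not pass after adjustment (adjusted p = 0.116). LNX1 (ENSDARG00000043323), another ubiquitin ligase, had 34.4, 37.2, 19.4, 4.61, 8.60 and 21.1 CPM in bihormonal cells, against 19.2, 24.7 and 11.1 CPM in GFPhigh cells. Its log2 fold change was 0.33 (SE 0.485, adjusted p = 0.681). GCNT4 (ENSDARG00000035198), which builds branches on O-linked glycans, had 20.7, 14.7, 24.0, 11.7, 21.4 and 22.3 CPM in bihormonal cells, against 34.2, 24.2 and 40.4 CPM in GFPhigh cells. Every bihormonal library was below every GFPhigh library for GCNT4, although the highest bihormonal and the lowest GFPhigh library were nearly equal (log2 fold change -0.59, SE 0.452, adjusted p = 0.405). It was at 0 in 6 of 7 β-cell libraries. PIF1 (ENSDARG00000020289), a DNA helicase, had 44.0, 5.94, 15.9, 6.63, 11.5 and 28.0 CPM in bihormonal cells, against 20.1, 32.0 and 5.32 CPM in GFPhigh cells, and a log2 fold change of 0.11 (SE 0.607, adjusted p = 0.926). ARVCF (ENSDARG00000074329), a catenin of the p120 family at cell contacts, had 19.9, 90.9, 43.7, 33.9, 45.7 and 23.4 CPM in bihormonal cells, against 49.7, 64.6 and 15.0 CPM in GFPhigh cells. GFPlow cells had 2.36, 1.41 and 2.06 CPM of ARVCF and β-cells 0.352 to 12.2 CPM (median 3.11), the highest β-cell library being close to the lowest GFPhigh library. Its log2 fold change was 0.21 (SE 0.607, adjusted p = 0.843). Of the genes with no given name, si:dkey-175g6.2 (ENSDARG00000086665) had 176, 248, 157, 109, 109 and 80.8 CPM in bihormonal cells, against 104, 166 and 83.0 CPM in GFPhigh cells (log2 fold change 0.52, SE 0.676, adjusted p = 0.637). si:ch211-258f14.2 (ENSDARG00000073963) had 29.2, 26.2, 29.4, 35.9, 16.7 and 12.7 CPM in bihormonal cells, against 10.8, 15.9 and 11.9 CPM in GFPhigh cells (log2 fold change 1.19, SE 0.651, adjusted p = 0.235). Both overlapped between the 2 groups.

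Bihormonal cells were then compared with GFPhigh cells. The rule did not use the difference between them, but it set the same minimum for both means, so that genes lost in either were not among the 24 and a low count of calls is no measure of likeness. Of the 24 genes, all tested in edgeR's quasi-likelihood fit of 14693 genes with Benjamini-Hochberg adjustment, 0 were called higher in bihormonal cells and 1 lower, at an adjusted p under 0.05 and a fold above 2. Over all tested genes, 1.42% were called higher and 1.34% lower. At an unadjusted p under 0.05, 6 of the 24 differed (27.9% of all tested genes), and DESeq2's Wald test called 0 higher and 2 lower (4.25% and 3.59% of all tested genes). Fold changes were positive for 13 and negative for 11, from -2.36 to 1.21 on the log2 scale, with a median of 0.16 beside 0.05 over all tested genes. Scaling on totals without the hormone genes moved that median of all genes to -0.14. The called gene was brinp3a.1 (ENSDARG00000076351), of a neural gene family named for induction by bone morphogenetic protein and retinoic acid. It had 18.4, 25.3, 22.0, 4.33, 7.15 and 1.96 CPM in bihormonal cells, against 40.6, 107 and 35.3 CPM in GFPhigh cells, so that all bihormonal libraries were below all GFPhigh libraries. The log2 fold change of brinp3a.1 was -2.04 (SE 0.548, adjusted p = 0.0467). The direction held in each alternative run, from -3.95 to -1.33. With 1 library left out, the adjusted p in the edgeR fit ran from 0.0351 to 0.288. The call ended without GFPhigh replicate 1 or 2, bihormonal replicate 4 or 5, β-cell replicate 2, 3, 4 or 6, or any GFPlow replicate.

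Besides brinp3a.1 and GCNT4, all bihormonal libraries were below all GFPhigh libraries for tent5bb and ELAVL3. These 4 of 24 stand beside 7.28% of all tested genes, and 0 of 24 had all bihormonal libraries above, beside 3.83%. tent5bb (ENSDARG00000011797), of a nucleotidyltransferase family, had 8.48, 10.9, 11.9, 4.76, 30.7 and 1.70 CPM in bihormonal cells, against 31.6, 40.8 and 84.6 CPM in GFPhigh cells. It missed the threshold in the edgeR fit (adjusted p = 0.0639) and passed in DESeq2's Wald test (adjusted p = 0.0431). ELAVL3 (ENSDARG00000014420), an RNA-binding protein of neurons, had 7.67, 14.7, 18.4, 2.88, 1.46 and 2.09 CPM in bihormonal cells, against 44.8, 21.1 and 32.2 CPM in GFPhigh cells (adjusted p = 0.0956). With 3 GFPhigh libraries, a p above the threshold does not show that a gene was equal in both cell types. Within the 1 set that holds both kinds of cells, bihormonal replicate 6 was above GFPhigh replicate 3 for 12 genes (56.5% of all tested genes) and below it for the other 12, with single libraries and no test.

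**Figure D2:**
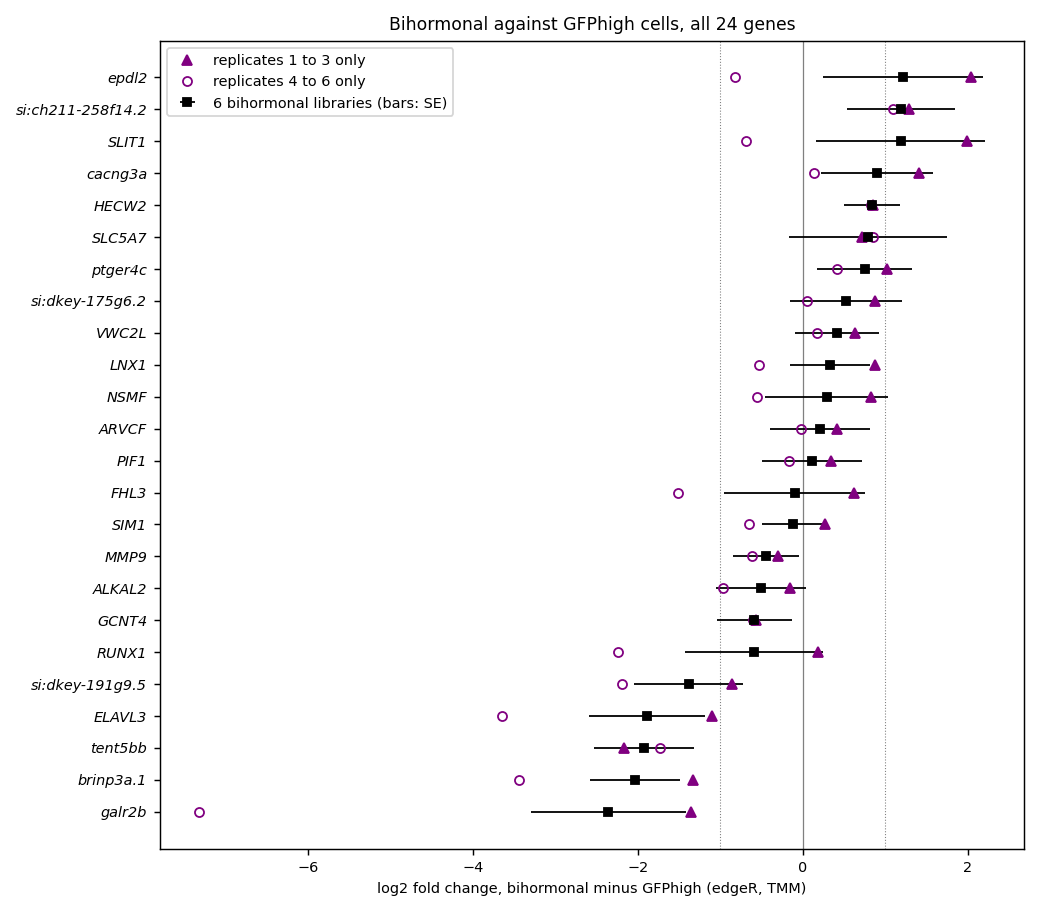
Log2 fold change, bihormonal minus GFPhigh cells, for the 24 genes on the TMM scale of edgeR. Squares with bars are estimates ± SE from 6 bihormonal libraries, triangles use bihormonal replicates 1 to 3 only and circles replicates 4 to 6 only, and dotted lines mark a 2-fold difference. The circle lies left of the triangle for most genes, furthest for galr2b at -7.32 against -1.36.

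The 24 genes varied over the bihormonal libraries, and this is given as a description. They were chosen on the mean of these libraries, which 1 high library can raise, and the genes beside them were not matched for level. The coefficient of variation over the 6 bihormonal libraries was 24.9% to 164% for the 24 genes, with a median of 65.1%, beside 31.0% over 11360 genes at 5 CPM or more in these cells. The libraries of replicates 1 to 3, which form 1 library set, had the higher mean for 23 of the 24 genes (54.8% of all tested genes did so), tent5bb being the exception. For 7 genes all of replicates 1 to 3 lay above all of replicates 4 to 6, and for 0 below, where 5.72% of all tested genes lay above in this way. These were si:dkey-175g6.2, brinp3a.1, FHL3, galr2b, ELAVL3, si:dkey-191g9.5 and epdl2. The rule used the bihormonal mean, so genes carried by replicates 1 to 3 could pass it, and these counts are a description. With replicates 1 to 3 only the rule kept 36 genes, all of the 24 among them. With replicates 4 to 6 only it kept 14 of the 24. The means of replicates 1 to 3 and 4 to 6 were 19.2 and 0.280 CPM for galr2b, 13.6 and 2.14 CPM for ELAVL3 and 21.9 and 4.48 CPM for brinp3a.1. In part of replicates 4 to 6, these 3 genes were near the level of the other sorts. FHL3 (ENSDARG00000104315), a protein of LIM domains, had 11.1, 34.1 and 12.7 CPM in replicates 1 to 3, and 4.76, 4.50 and 2.49 CPM in replicates 4 to 6. epdl2 (ENSDARG00000055539), an ependymin-like gene, had 19.7, 41.2 and 7.87 CPM in replicates 1 to 3, and 5.34, 0 and 3.40 CPM in replicates 4 to 6. For HECW2 the means were 31.6 CPM in replicates 1 to 3 and 28.9 CPM in replicates 4 to 6, for GCNT4 they were 19.8 and 18.5 CPM, and for SLC5A7 they were 8.29 and 8.15 CPM.

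Bihormonal replicates 1 to 3 and 4 to 6 also differed in ins. Replicates 1 to 3 had 41596, 26535 and 30178 CPM of ins, and replicates 4 to 6 had 65503, 103306 and 72892 CPM, without overlap. The direction was opposite to that of the 24 genes summed. It was opposite for the means of 23 genes, though HECW2, GCNT4 and SLC5A7 hardly differed, and tent5bb went the way of ins. sst1.1 had 885047, 854382 and 860389 CPM in replicates 1 to 3, and 1525289, 980856 and 452666 CPM in replicates 4 to 6, which overlapped. Between replicates 1 to 3 and 4 to 6, the library set, the level of ins and the summed level of these genes therefore changed together. Replicates 4 and 5 share a library set and replicate 6 is in another. Within replicates 4 to 6, replicate 5 had both the highest ins and the highest sum. Within replicates 1 to 3, replicate 2 had the lowest ins and the highest sum. The part of the library set or of ins in the difference was not tested, and as the first 3 replicates are 1 library set they cannot be told apart. With replicates 4 to 6 only, brinp3a.1, galr2b and ELAVL3 passed the threshold as lower in bihormonal than in GFPhigh cells. These replicates were singled out after the values were seen, and these 3 genes were already known to be low there. The calls are therefore a description and lend no support. Over all genes tested in the fit of replicates 4 to 6, 7.32% were called higher and 4.86% lower, more than with all 6 replicates. With all 6, the adjusted p in the edgeR fit was 0.115 for galr2b and 0.0956 for ELAVL3. With replicates 1 to 3 only, 0 were called, beside 0.0750% higher and 0.0614% lower over all genes.

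**Figure D3:**
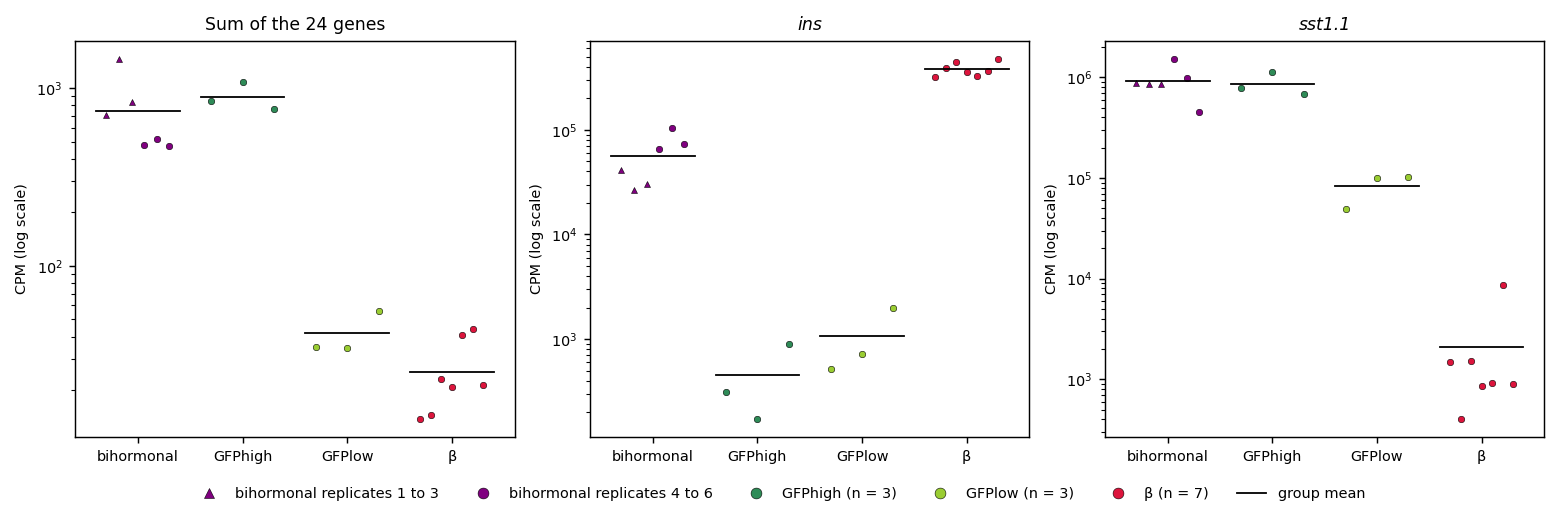
Level per library of the 24 genes summed (left), ins (middle) and sst1.1 (right), as CPM on totals without the hormone genes, on log axes. Points are libraries, lines are group means and triangles are bihormonal replicates 1 to 3. The triangles have the 3 highest sums and the 3 lowest ins levels among bihormonal cells, while sst1.1 overlaps.

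Single libraries also shaped the group means. GFPhigh replicate 3 was the lowest of the 3 GFPhigh libraries for 14 of the 24 genes, among them SLIT1, ptger4c, PIF1 and SLC5A7, but the highest for galr2b, tent5bb, GCNT4, FHL3, ALKAL2 and cacng3a. Bihormonal replicate 2 was the highest of 6 for 14 genes, and the sum of all 24 genes there was 1464 CPM, beside 474 to 840 CPM in the others. This library held the fewest counts outside the hormone genes among bihormonal cells, 3200090, beside 6131140 to 8002337. Without bihormonal replicate 2 the rule kept 19 of the 24 genes.

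GFPlow cells were also set beside β-cells. The rule capped both means, and most of the 24 genes entered this test only through the groups where they are high, since 5 of them passed the filter on low counts in a fit of these 2 groups alone. The counts, fold changes and calls that follow are therefore a description. The GFPlow mean was above the β-cell mean for 18 of the 24 genes (64.0% of all tested genes), and 3 passed the threshold as higher in GFPlow cells and 0 as lower, beside 9.87% and 7.88% of all tested genes. MMP9 had 4.94, 3.52 and 5.16 CPM in GFPlow cells, against 0.264 to 3.71 CPM (median 0.987) in β-cells. The log2 fold change was 1.59 (SE 0.496, adjusted p = 0.0239), and in the fit of the 2 groups alone the adjusted p was 0.0603. brinp3a.1 had 1.29, 0.880 and 2.58 CPM in GFPlow cells, against 0 to 0.225 CPM (median 0) in β-cells. Its fitted log2 fold change was 3.88. ALKAL2 had 0.430, 0 and 1.81 CPM in GFPlow cells, against 0 to 0.225 CPM (median 0) in β-cells, and the fitted log2 fold change was 2.73. MMP9 overlapped between the 2 groups. All their libraries were apart for brinp3a.1, but its values rest on 21 counts in GFPlow cells and 4 in β-cells. ALKAL2 rests on 9 and 4 counts, with 1 GFPlow library at 0, and neither gene was tested in the fit of the 2 groups alone. Without GFPlow replicate 3 none of these 3 calls held, and HECW2 was called lower instead. In the only set with both kinds of cells (GFPlow replicates 2 and 3, β-cell replicates 2 and 3), the GFPlow mean was higher for 19 genes (62.4% of all tested genes), and both GFPlow libraries were above both β-cell libraries for 10 (39.1%), MMP9 and brinp3a.1 among them.

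The level of these genes in GFPlow cells can be set beside that of sst1.1 itself. The GFPlow mean of sst1.1 was 9.71% of the GFPhigh mean, and that of the 24 genes was 0% to 9.02% with a median of 3.25%, where the rule allows at most 1 in 8. Among β-cells, replicate 6 had 8607 CPM of sst1.1, beside 402 to 1529 CPM in the others. In that library si:dkey-175g6.2 had 29.1 CPM, beside 0.870 to 8.97 CPM in the other β-cell libraries, whereas SIM1 was at 2.83 CPM, the lowest of the 7. It was the highest β-cell library for 4 of the 24 genes, and β-cell replicate 5 was the highest for 8. The part of cells of another sort in these values was not tested.

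The thresholds were next applied to each other pair of groups, as a description with no test. Bihormonal and GFPhigh cells shared 29 genes over GFPlow and β-cells, the genes set aside included. Bihormonal cells and β-cells shared 5 over the other 2 groups (ins, FSTL1, helz2c, aplnra and bnip4), and bihormonal and GFPlow cells shared 1 (rbp5). GFPhigh and GFPlow cells shared 4, GFPhigh cells and β-cells shared 0, and GFPlow cells and β-cells shared 31. Genes 8-fold above all 3 other groups numbered 22 in bihormonal cells, 5 in GFPhigh cells, 506 in GFPlow cells and 79 in β-cells. These counts come from the same libraries and are not independent of each other.

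**Figure D4:**
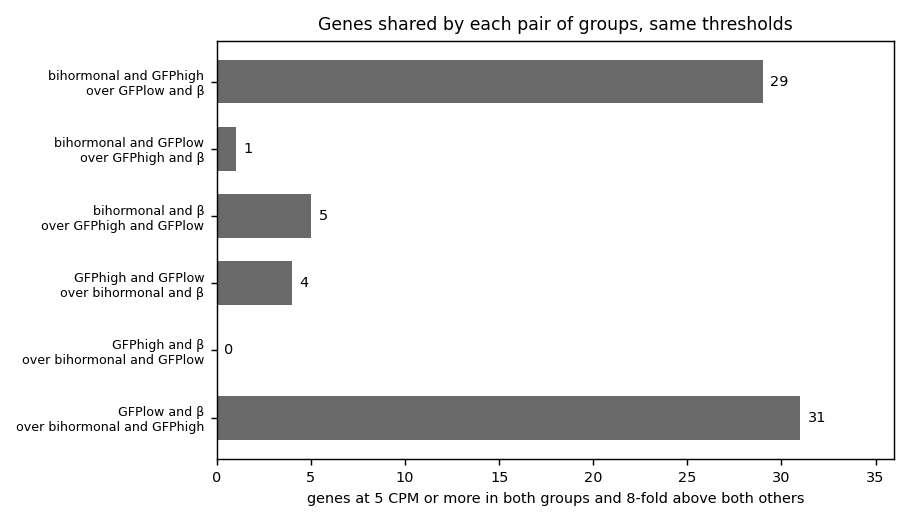
Number of genes at 5 CPM or more in both groups of a pair and at least 8-fold above both remaining groups, for each of the 6 pairs. Bars start at 0. Bihormonal with GFPhigh cells (29) and GFPlow cells with β-cells (31) have the long bars, and the other 4 pairs have 0 to 5.

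Genes at the edge of the rule behaved as follows. Just inside the 8-fold threshold were brinp3a.1 (8.33 times) and ELAVL3 (8.68 times), and just outside it cyp3a65 (7.99 times) and NR6A1 (7.76 times). Just inside the level threshold were RUNX1 (5.47 CPM in bihormonal cells) and SLC5A7 (5.60 CPM in GFPhigh cells), and just outside it SLC35F2 (4.94 CPM in bihormonal cells) and rn7sl1-4 (4.46 CPM in GFPhigh cells). When 1 library was left out the choice was stable for part of the genes: 14 of the 24 were kept whichever library it was. These were SIM1, si:dkey-175g6.2, MMP9, SLIT1, ptger4c, HECW2, GCNT4, PIF1, LNX1, si:ch211-258f14.2, tent5bb, galr2b, NSMF and VWC2L. Of these 14, SIM1, galr2b and NSMF were lost with group medians and also with bihormonal replicates 4 to 6 only. NSMF and VWC2L were lost on TMM library sizes. NSMF (ENSDARG00000060025), which carries signals from synapse to nucleus, had 2.88 to 21.9 CPM (median 4.87) in bihormonal cells, against 10.8, 5.55 and 5.64 CPM in GFPhigh cells. si:dkey-191g9.5 (ENSDARG00000056080) had 2.51 to 13.1 CPM (median 5.14) in bihormonal cells, against 7.25, 36.7 and 11.3 CPM in GFPhigh cells.

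Relatives and partners of the chosen genes were then read from the same tables. They were picked after values had been seen, and reads of near-identical copies may have been split or lost in counting. Several relatives had another pattern. A second gene named FHL3 (ENSDARG00000034643) averaged 0.278 CPM in bihormonal cells and 0.231 CPM in GFPhigh cells, but 16.4 CPM in GFPlow cells and 0.646 CPM in β-cells. CACNG3 (ENSDARG00000076401), of the family of cacng3a, averaged 0.276, 0.231 and 2.01 CPM in bihormonal, GFPhigh and GFPlow cells, and 60.2 CPM in β-cells. In the edgeR fit its log2 fold change between bihormonal cells and β-cells was -7.39 (SE 0.563, adjusted p = 4.36e-09), where 7.39% of all tested genes were called higher and 5.76% lower. Thus CACNG3 was highest in β-cells, whereas cacng3a was highest in bihormonal (mean 9.62 CPM) and GFPhigh cells (5.65 CPM), at a lower level. Other genes of the family were not set beside them. A second gene named SLIT1 (ENSDARG00000044954) averaged 45.5, 87.5 and 35.2 CPM in bihormonal, GFPhigh and GFPlow cells, against 1.11 CPM in β-cells, and so was not low in GFPlow cells. The same held for a second NSMF gene (ENSDARG00000101234), with 12.4, 20.3 and 11.3 CPM against 0.193 CPM. A second ARVCF gene, GALR2 and tent5ba averaged 43.6 CPM or more in each of the 4 groups, though not at equal levels. In bihormonal, GFPhigh, GFPlow and β-cells, GALR2 averaged 70.7, 114, 43.6 and 62.4 CPM, and tent5ba 232, 197, 112 and 151 CPM. Both thus had their highest means in bihormonal and GFPhigh cells, with overlap between bihormonal and β-cell libraries. The second ARVCF gene did not, with 122, 169, 145 and 94.4 CPM. epdl1 averaged 306, 163, 46.2 and 85.1 CPM in bihormonal, GFPhigh, GFPlow and β-cells. Like epdl2 it was highest in bihormonal and GFPhigh cells, but GFPhigh cells (90.0 to 272 CPM) overlapped with β-cells (52.3 to 125 CPM). Between bihormonal cells and β-cells its log2 fold change was 2.01 (edgeR, SE 0.375, adjusted p = 0.000436). BRINP3, a relative of brinp3a.1, averaged 5.03 CPM in GFPlow cells and 0.0436 CPM or less elsewhere. In bihormonal, GFPhigh, GFPlow and β-cells, brinp3b averaged 0.0272, 6.85, 0 and 1.93 CPM, and hecw2b 4.63, 12.7, 6.53 and 4.11 CPM. Both were called lower in bihormonal than in GFPhigh cells (edgeR, adjusted p = 0.0453 and 0.0365), beside 1.34% of all tested genes. For brinp3b the GFPhigh libraries had 16.6, 3.04 and 0.967 CPM. β-cell replicates 4 and 5 had 6.89 and 6.51 CPM of it, and other β-cell libraries at most 0.0879 CPM. GFPhigh replicates 1 and 2 and β-cell replicates 4 and 5 form a library set without bihormonal cells. The part of that set in the call of brinp3b was not tested.

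Partners of the ligands and receptors were also uneven. ltk, a receptor for ALKAL2, averaged 13.2 CPM in β-cells, where ALKAL2 was nearly absent, and 0.709 CPM in bihormonal cells, 0 CPM in GFPhigh cells and 0.0716 CPM in GFPlow cells. Between bihormonal cells and β-cells ltk had a log2 fold change of -3.87 (edgeR, SE 0.526, adjusted p = 1.86e-05). A few reads of ltk were counted in 5 of 6 bihormonal libraries (at most 1.59 CPM) and 0 in GFPhigh libraries. On these few reads ltk was called higher in bihormonal than in GFPhigh cells (edgeR, log2 fold change 5.58, SE 1.42, adjusted p = 0.0432). Over all tested genes 1.42% were called higher in that comparison. The other receptor, ALK, averaged 0.158 CPM or less in each group. PTGS2 (ENSDARG00000004539), which makes the precursor of prostaglandin E2, the ligand of ptger4c, had 222, 322 and 87.2 CPM in GFPlow cells, and averaged 0.492 CPM in bihormonal cells, 4.75 CPM in GFPhigh cells and 0.198 CPM in β-cells. PTGES, a prostaglandin E synthase, was also highest in GFPlow cells, with 0.0240, 0.0620, 8.14 and 0 CPM in bihormonal, GFPhigh, GFPlow and β-cells. Further genes of prostaglandin synthesis had other patterns. In the same order ptgs1 averaged 0.0240, 5.83, 0 and 0.0484 CPM. Its GFPhigh mean rests on replicate 1 alone (17.5, 0 and 0 CPM in replicates 1 to 3). For ptges3l the means were 5.38, 3.68, 4.61 and 0.144 CPM, while PTGES2 averaged 28.7 to 39.4 CPM. The Robo receptors of SLIT1 were found in all sorts: ROBO2 averaged 143, 279.5, 129 and 81.6 CPM in bihormonal, GFPhigh, GFPlow and β-cells, and ROBO1 averaged 85.7, 238, 141 and 128 CPM. ROBO1 was called lower in bihormonal than in GFPhigh cells (edgeR, log2 fold change -1.31, SE 0.282, adjusted p = 0.0311), beside 1.34% of all tested genes. It had 42.5 to 135 CPM in bihormonal libraries, against 151, 390 and 173 CPM in GFPhigh libraries. Without GFPhigh replicate 2, calls over all genes fell to 8 higher and 5 lower, against 208 and 197. Whether the calls of ROBO1, ltk, brinp3b and hecw2b held with a library left out was not tested. ARNT2, a dimer partner of SIM1, averaged 69.1, 94.5, 110.4 and 74.7 CPM in the same order. CBFB, a dimer partner of RUNX1, was near the floor, with 0.325, 0.620, 0.704 and 0.225 CPM. GAL, the ligand of galr2b, averaged 4.70, 1.86, 1.35 and 8.76 CPM. RUNX2, a relative of RUNX1, was highest in β-cells, with 3.91, 12.9, 0 and 22.6 CPM. Of the cholinergic genes that act with SLC5A7, CHAT was at 0 in all 4 groups and SLC18A3 averaged 0.0303 CPM or less, while ACHE averaged 18.5 to 22.5 CPM.

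**Figure D5:**
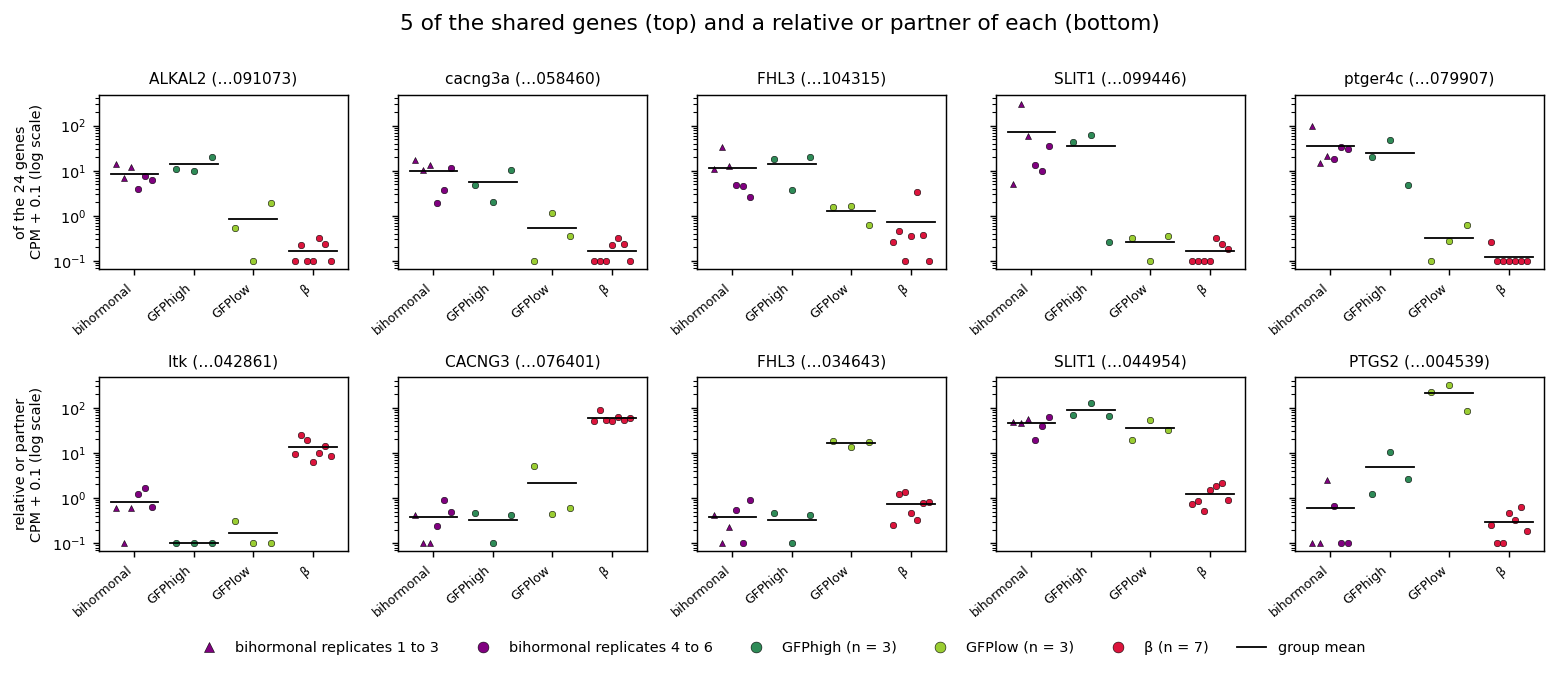
Level per library of 5 of the 24 genes (top) and, below each, a relative or partner: ltk under ALKAL2, CACNG3 under cacng3a, the second FHL3 gene, the second SLIT1 gene and PTGS2 under ptger4c. The axis is CPM plus 0.1 on a log scale, points are libraries and lines are group means, and the last 6 digits of each gene ID stand in the panel title. The lower genes peak in β-cells (ltk, CACNG3) or GFPlow cells (FHL3, PTGS2), and the second SLIT1 gene is low in β-cells alone.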

How the data were processed

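RNA was measured in 19 libraries, made by SMART-Seq2 and Nextera from sorted cells. Per the labels, the authors aligned reads to GRCz11 with STAR and counted them per gene with featureCounts. The deposited values are raw counts, 1 table per library. The versions of both tools are not given in the sources used here. The study calls the libraries independent biological replicates. Reads amplified by PCR are not separate molecules, so floors cover counting error only. All genes and lists were chosen with earlier results of these data known.

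Levels are CPM on totals without 4 hormone genes. Fold changes come from 1 edgeR model of all 19 libraries with 1 mean per group and TMM scaling. The quasi-likelihood test was run on the 14693 genes whose normalized count averaged 10 or more (common dispersion 0.139), with Benjamini-Hochberg adjustment over all of them. Tools were edgeR 4.0.16 with limma 3.58.1, and DESeq2 1.42.0, in R 4.3.3. The test was tried on simulated data. No 2 libraries of 1 group agreed within sampling noise.

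Levels per library are given for the 12 genes with the highest smaller of the bihormonal and GFPhigh means, for called genes, for genes of fixed functional families and for genes next to a threshold, and other genes by range. Genes outside that rule were chosen after their values were seen. Functional families were taken by symbol patterns, and 7 of the 24 genes match one. Alternatives were other scalings, filters and tests, a fit of the 2 groups compared, the replicate number or library set as a block, no fold minimum, and each library left out. Sequences and promoters were not analysed here.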

Additional observations from a re-analysis of the deposited data

Results flagged for a closer look

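For each of the 24 genes and their sum, the highest and lowest library of the bihormonal cells and of the β-cells was set against its group with Dixon's test. Of 50 groups tested, 15 had a library apart from the others (30.0%). The usual rate of 1 in 20 holds for independent values with a normal distribution and is no fair reference here. CPM were not transformed, the rule used the group means, and the sum is made of the genes. Where all other libraries were at 0, as for ptger4c in β-cells, any read sets a library apart.

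In bihormonal cells, replicate 2 stood above the other 5 for SIM1 (369.7 CPM, others up to 191), ARVCF (90.9 CPM, others up to 45.7), SLIT1 (306.6 CPM, others up to 58.5), FHL3 (34.1 CPM, others up to 12.7), VWC2L (16.9 CPM, others up to 7.28) and the sum of the genes (1464 CPM, others up to 840). Replicate 1 stood above the others for ptger4c (98.0 CPM, others up to 33.6) and replicate 5 for tent5bb (30.7 CPM, others up to 11.9).

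In β-cells, replicate 6 stood apart for si:dkey-175g6.2 (29.1 CPM, others up to 8.97) and GCNT4 (0.539 CPM, others 0), and replicate 5 for MMP9 (3.71 CPM, others up to 1.48) and FHL3 (3.26 CPM, others up to 0.373). Replicate 3 stood apart for si:ch211-258f14.2 (1.97 CPM, others up to 0.474). Single reads put replicate 1 apart for ptger4c (0.158 CPM) and replicate 4 for epdl2 (0.125 CPM).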

How the results depend on the processing

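The number of genes kept by the rule was 12 on totals with the hormone genes, 79 at a fold of 4, 10 at a fold of 16, 14 at a minimum of 10 CPM and 14 with bihormonal replicates 4 to 6 only, against 24. It was 30 on TMM library sizes (17 shared with the 24) and 28 with group medians (15 shared). With 1 library left out it was 19 to 39, the highest without GFPlow replicate 3.

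Genes called lower in bihormonal than in GFPhigh cells numbered 2 by DESeq2's Wald test, 2 with totals without the hormone genes, 0 in a fit of the 2 groups only, 0 with bihormonal replicates 1 to 3 only and 3 with replicates 4 to 6 only, and 0 to 1 with a library left out, against 1. With the library set as a block the count stayed 1, but the gene was galr2b. None was called higher under any alternative. Genes called higher in GFPlow cells than in β-cells numbered 1 in a fit of the 2 groups only, where 5 of the 24 were tested, 1 with a block for the library set, and 0 to 4 with a library left out, against 3. Those called lower numbered 0 to 1. As above, these counts of GFPlow cells against β-cells are a description.

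On values centred within each group, same-numbered libraries correlated at -0.20 to 0.09 between bihormonal and GFPhigh cells. Between GFPlow cells and β-cells they correlated at -0.02 to 0.10. No correlations of differently numbered libraries were set beside these, so they cannot decide whether replicate numbers pair the samples. With the replicate block 0 of the genes were called lower in bihormonal cells and 2 higher in GFPlow cells, and calls over all genes between bihormonal and GFPhigh cells fell to 2 higher and 1 lower, against 208 and 197.

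Some log2 fold changes of bihormonal against GFPhigh cells changed sign. With the library set as a block they were -0.37 for si:dkey-175g6.2, 0.093 for MMP9 and -0.35 for si:ch211-258f14.2 (1.19 without it), while SLIT1 was at 5.64 and PIF1 at 1.73 without a change of sign. On totals without the hormone genes they were -0.012 for ARVCF and -0.029 for PIF1. With bihormonal replicates 1 to 3 only SIM1 was at 0.26, and with replicates 4 to 6 only ARVCF was at -0.023, SLIT1 at -0.69, PIF1 at -0.17 and LNX1 at -0.53. With a library left out the range was -0.52 to 0.014 for SIM1, -0.20 to 0.63 for ARVCF, -0.36 to 1.87 for SLIT1 and -0.34 to 0.71 for PIF1. None of these was called in any fit, and the cause was not tested.

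The 3 GFPhigh and 3 GFPlow libraries limit the tests, and levels under 1 CPM in GFPlow cells and β-cells rest on a few counts each.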
